A study of Mus musculus with 6 samples.

Results

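The nuclear-encoded genes of the respiratory chain and ATP synthase were described in the pharyngeal region of *Pax9*-null mouse embryos at E9.5. They were taken from the deposited expression table by gene symbol: symbols starting with Nduf, Cox4 to Cox8, Uqcr or Atp5, together with *Sdha*, *Sdhb*, *Sdhc*, *Sdhd*, *Cyc1* and *Cycs*, and with hyphenated symbols left out. This gave 90 of the 14647 genes listed, and no measured value was used to choose them. All 90 are annotated as protein coding. They comprised 35 genes of complex I, 4 of complex II, 8 of complex III, cytochrome *c*, 17 of complex IV, 16 of complex V and 9 assembly factors (*Ndufaf1* to *Ndufaf8* and *Atp5sl*). *Ndufs3*, *Uqcrc1*, *Cox7b2*, *Cox8b* and *Cox8c* were not analysed here.

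RNA was sequenced from 3 *Pax9*-null and 3 wild-type libraries, each from embryos of the C57Bl/6J background matched by somite number. The null allele is constitutive, not driven by Cre, so that it was present in every tissue of the embryo, and no treatment was given. Embryos of both sexes were used, and the sex behind each library was not given in the sources used here. The dissected tissue holds pharyngeal endoderm, neural crest-derived and mesodermal mesenchyme, ectoderm, vessels and blood. It reached to the base of the heart, and cardiomyocyte markers were detected too, least in wild-type replicate 3. A value is an average over all of these cells.

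The respiratory chain passes electrons from NADH and succinate to oxygen through complexes I to IV and uses the energy to pump protons across the inner mitochondrial membrane, and complex V (ATP synthase) uses the proton gradient to make ATP. Complexes I, III, IV and V combine subunits encoded in the nucleus with a few encoded in mitochondrial DNA, whereas complex II is nuclear-encoded throughout. Many of the nuclear genes share binding sites for nuclear respiratory factor 1 (NRF1), for the ETS factor GABP and for YY1 in their promoters.

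RefSeq promoter windows (GRCm38.p6, 250 bases before to 50 after each start) were matched for 72 of the 90 genes, giving 78 windows of 300 bases. Short words for the 3 factors were searched on both strands: CGCATGCG or CGCACGCG for NRF1, CCGGAAG (reverse complement CTTCCGG) for ETS factors, and AAGATGGC for YY1. An NRF1 word was present in 26.9% of the windows of the respiratory chain genes and in 4.2% of all 32851 windows. The ETS word was present in 21.8% and 8.9%, and the YY1 word in 15.4% and 2.7%. Words of different factors did not overlap in any of the 78 windows, and 51.3% of these held at least 1 word against 14.4% of all windows. GC content was 58.0% in the windows of these genes and 53.8% in all windows, and its part in these shares was not tested. The 7 stretches printed here, with the words in capitals, are the 120 bases just before the RefSeq start, and they show how the words lie in promoters of genes that were called in the expression test (*Uqcrh*, *Ndufaf4*, *Ndufaf1*) and of genes that were not (*Uqcr11*, *Cycs*, *Cox6a1*, *Atp5e*). They were chosen after the values were seen, and overlap exons of protein-coding genes by at most 23 bases. In *Cycs*, 47 bases are also in an exon of the antisense gene 5430402O13Rik.
*Uqcrh*, chr4:116075071-116075190, minus strand: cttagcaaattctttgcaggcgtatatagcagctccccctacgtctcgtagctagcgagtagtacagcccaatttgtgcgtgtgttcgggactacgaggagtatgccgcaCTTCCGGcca
*Uqcr11*, chr10:80406822-80406941, minus strand: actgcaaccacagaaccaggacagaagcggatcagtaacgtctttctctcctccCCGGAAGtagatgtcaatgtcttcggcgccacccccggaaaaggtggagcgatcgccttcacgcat
*Cycs*, chr6:50566570-50566689, minus strand: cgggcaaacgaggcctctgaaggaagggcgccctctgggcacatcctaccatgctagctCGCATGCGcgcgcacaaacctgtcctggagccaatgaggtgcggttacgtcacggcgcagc
*Cox6a1*, chr5:115348959-115349078, minus strand: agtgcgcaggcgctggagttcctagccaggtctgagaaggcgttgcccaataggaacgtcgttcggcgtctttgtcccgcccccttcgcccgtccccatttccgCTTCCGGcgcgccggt
*Atp5e*, chr2:174464102-174464221, minus strand: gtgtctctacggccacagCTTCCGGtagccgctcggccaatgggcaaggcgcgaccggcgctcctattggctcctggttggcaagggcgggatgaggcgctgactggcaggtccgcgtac
*Ndufaf1*, chr2:119662835-119662954, minus strand: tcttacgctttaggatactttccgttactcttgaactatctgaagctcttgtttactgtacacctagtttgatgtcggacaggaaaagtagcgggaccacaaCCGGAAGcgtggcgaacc
*Ndufaf4*, chr4:24897963-24898082, plus strand: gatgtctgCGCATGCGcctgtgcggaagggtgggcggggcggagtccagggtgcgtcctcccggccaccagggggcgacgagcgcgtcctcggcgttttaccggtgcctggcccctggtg
The words were found in promoters of genes that were called and of genes that were not. Of the 31 matched genes called higher in *Pax9*-null embryos, 15 held at least 1 word, and of the other 41 genes 23 did. An NRF1 word was found in 9 and 10 genes of these sets, an ETS word in 8 and 9, and a YY1 word in 3 and 8.

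*Pax9* itself checked the genotype labels. It was at −0.43, −0.63 and −0.59 log2 RPKM in *Pax9*-null replicates 1 to 3 and at 0.63, 0.71 and 0.96 in wild-type replicates 1 to 3, a log2 fold change of −1.32 ± 0.19 (SE) with an adjusted *P* of 0.0155 by limma. Values here are log2 reads per kilobase of gene model, scaled to library size (RPKM), and a fold change is *Pax9*-null over wild-type on the same scale. They are always given in the order of replicates 1, 2 and 3. Effective library sizes worked out from the table were 11509904 to 11728254 reads in *Pax9*-null and 12352676 to 12692324 in wild-type libraries. The median member had between 896 and 1415 reads in a library, and the largest had 16326. Markers of pharyngeal endoderm and of neural crest and arch mesenchyme were detected in all 6 libraries, with summed levels of 140 to 229 RPKM (8 genes) and 65.1 to 76.9 RPKM (8 genes). Some libraries stood apart. All 12 cardiomyocyte markers were lowest in wild-type replicate 3, where they summed to 81.3 RPKM against 1190 to 1560 RPKM in the other 5 libraries. The 10 primitive erythroid markers summed to 4910 and 4470 RPKM in *Pax9*-null replicates 1 and 3 and to 2410 to 2650 RPKM in the other 4.

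Transcripts of the respiratory chain tended to be higher in *Pax9*-null embryos, by a modest amount. Of the 90 genes, 84 had a log2 fold change above 0 and 6 below, with a median of 0.30 against 0.0 over all 13547 genes tested. Differences were tested with limma over all of these genes, and called at an adjusted *P* of at most 0.1. All 90 genes passed the filter on low values, 38 of them (42.2%) were called higher, where 14.7% of all tested genes were called higher, and 1 was called lower, against 12.0%. The 3 *Pax9*-null libraries lay entirely above the 3 wild-type libraries for 41 genes, against 21.8% of all tested genes, and entirely below for 1, against 20.1%. In whole tissue, more cells rich in mitochondria and more of these RNAs in each cell cannot be told apart. Fold change also fell with coding length over all tested genes (Spearman's rho −0.49). The median coding sequence of the 90 genes was 435 bp, against 1386 bp. Once trends with gene model length and GC content were taken out, the median log2 fold change of the 90 genes was 0.11. In that fit 5 of the 90 were called higher and 3 lower by limma, against 2.55% and 1.16% of all tested genes. The trend with coding length was not removed directly, and its rho over all tested genes was then −0.34. The part of these trends in the result was not tested.

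**Figure D1:**
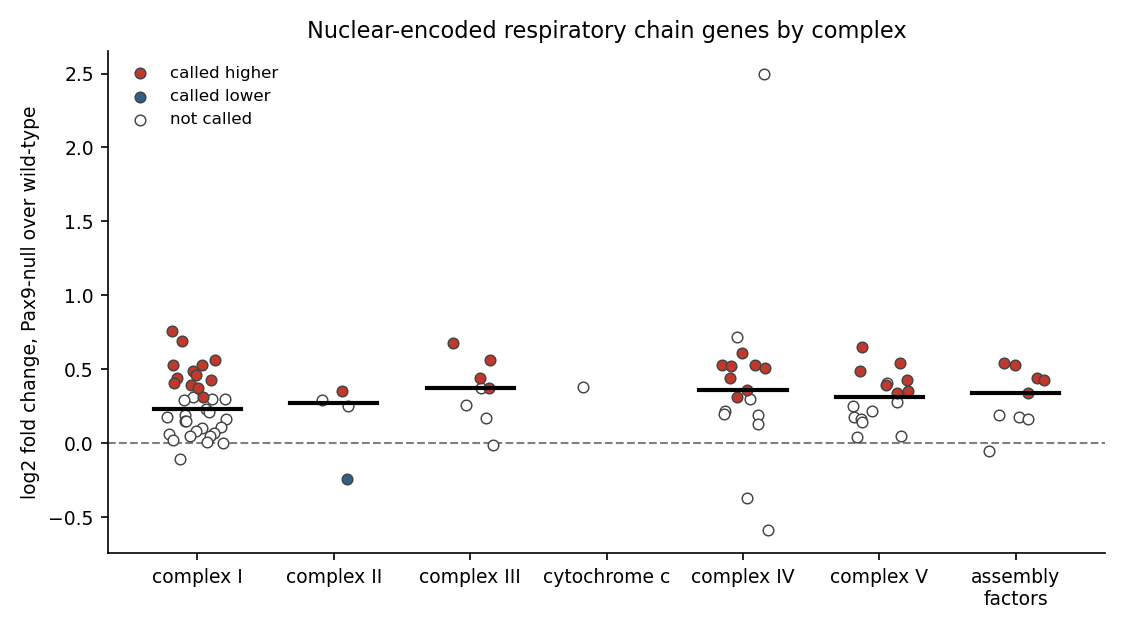
Log2 fold change (*Pax9*-null over wild-type) of the 90 nuclear-encoded genes, grouped by complex. Each point is a gene, filled where it was called, the bars are group medians and the dashed line is the median of all tested genes (0.0). Medians of groups of several genes run from 0.23 (complex I) to 0.37 (complex III), and the point at 2.50 is *Cox6a2*, which was not called.

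The counts rested on a subset of libraries. Relative to each gene's mean over the 6 libraries, the median deviation of the 90 genes was 0.20, 0.01 and 0.23 in the *Pax9*-null libraries and −0.30, 0.02 and −0.18 in the wild-type libraries. Replicate 2 of the wild-type embryos was thus no lower than replicate 2 of the *Pax9*-null embryos, with a median difference of −0.01 (*Pax9*-null minus wild-type), 43 genes above 0 and 47 below. *Pax9*-null replicate 1 was the highest of the 6 libraries for 43 genes and replicate 3 for 36, whereas wild-type replicate 1 was the lowest for 60. The summed level of all 90 genes was 8296, 7202 and 8222 RPKM in *Pax9*-null and 5767, 7173 and 6224 RPKM in wild-type libraries. Without *Pax9*-null replicate 1 or replicate 3, 0 genes were called higher by limma, with 31 and 28 genes higher at an unadjusted *P* under 0.05 and medians of 0.28 and 0.27. Over all tested genes, 301 and 175 were called in these fits. Without wild-type replicate 1 or 3, 17 genes were called higher, with medians of 0.21 and 0.28, and 1799 and 2141 of all tested genes were called in either direction. Among the 38 genes, 13 were called in all 4 fits that left out 1 of the other libraries, including *Ndufb4*, *Ndufv2*, *Cox7c*, *Atp5l* and *Ndufaf4*.

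The libraries highest in respiratory chain transcripts, *Pax9*-null replicates 1 and 3, were also those highest in erythroid markers. All 10 of these markers had a log2 fold change above 0 (median 0.55). Of the 10, 2 were called higher, against 14.7% of all tested genes, among them *Hbb-bh1* (embryonic beta-like globin, log2 fold change 0.78). With length and GC trends removed, 9 of the 10 were above 0 (median 0.47). In that fit no marker of this list was called by limma, and *Hbb-bh1* was at 0.04. Within the wild-type group the erythroid sum was 2410, 2510 and 2460 RPKM, while the respiratory chain deviation ran from −0.30 to 0.02. The part of blood cells in the result was not tested. The cardiomyocyte-poor library, wild-type replicate 3, was the lowest of the 6 for 19 of the respiratory chain genes, and wild-type replicate 1, with a cardiomyocyte sum of 1330 RPKM, for 60. Without wild-type replicate 3, 17 genes were called higher and the median log2 fold change was 0.28. The part of heart tissue in the result was not tested.

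**Figure D2:**
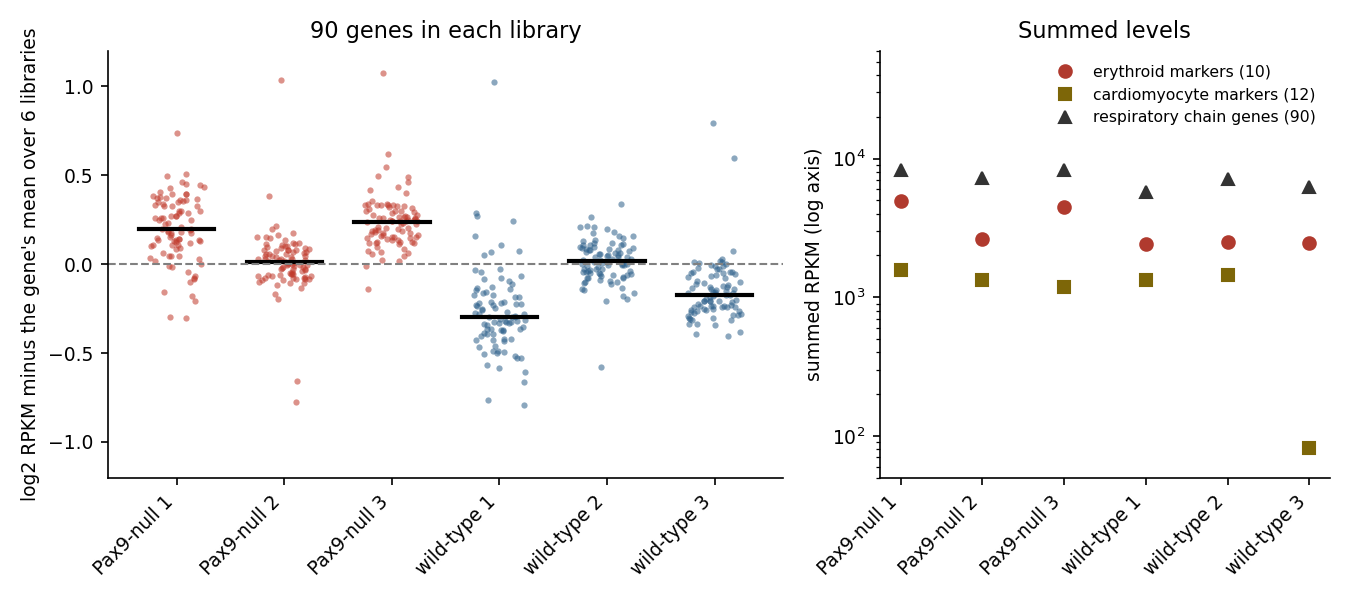
Left, log2 RPKM of each of the 90 genes in each library minus the gene's mean over the 6 libraries (red, *Pax9*-null, blue, wild-type, black bars, medians), with 4 values of *Cox6a2* and *Cox7a1* outside the axis. Right, summed RPKM on a log axis of the 90 genes and of the erythroid and cardiomyocyte markers, where *Pax9*-null replicates 1 and 3 have the highest erythroid sums (4910 and 4470) and wild-type replicate 3 the lowest cardiomyocyte sum (81.3).

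Complex I (NADH dehydrogenase) is the entry point for electrons from NADH. Of its 35 genes, 13 were called higher and 0 lower by limma, against 14.7% and 12.0% of all tested genes. At an unadjusted *P* under 0.05, 0 were lower as well, and the median log2 fold change was 0.23. The 6 core genes listed, which encode the nuclear-encoded subunits that hold the flavin and iron-sulphur clusters and the quinone site, had a median of 0.06, and the 29 accessory genes a median of 0.30 with 12 called. *Ndufv2*, an iron-sulphur subunit of the NADH-binding module (GRCm38 chr17:66078638-66101559), was the core gene called higher. It was at 6.89, 6.68 and 6.71 in *Pax9*-null and at 6.14, 6.47 and 6.29 log2 RPKM in wild-type libraries, a log2 fold change of 0.46 ± 0.11 (SE, n = 3 and 3, adjusted *P* of 0.0459 by limma), and the groups did not overlap. *Ndufv1*, which binds NADH and flavin, was at 5.73, 5.73 and 5.98 against 5.68, 5.93 and 5.83 log2 RPKM, with overlapping groups and a log2 fold change of 0.00 ± 0.11. With length and GC trends removed, *Ndufv2* was at 0.13 and *Ndufv1* at 0.22. Neither was called in that fit (adjusted *P* of 0.293 and 0.169 by limma). *Ndufs1*, *Ndufs7* and *Ndufs8* had log2 fold changes of 0.08, 0.02 and 0.07, and the libraries of the genotypes overlapped in each. Their adjusted *P* values ran from 0.568 to 0.948 by limma.

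The accessory subunits held the largest differences of complex I. *Ndufb4*, a subunit of the membrane arm (chr16:37647170-37654453), had the largest log2 fold change, 0.76 ± 0.16 (SE, adjusted *P* of 0.0401 by limma). Its libraries were at 5.62, 5.25 and 5.60 in *Pax9*-null and 4.45, 5.02 and 4.73 log2 RPKM in wild-type embryos, so that the lowest *Pax9*-null library was above the highest wild-type library. Without *Pax9*-null replicate 1 or 3 its adjusted *P* was 0.165 and 0.128. *Ndufc2* (0.69), *Ndufc1* (0.56), *Ndufb2* and *Ndufa6* (0.53 each) followed, also called. *Ndufb9*, the most abundant gene of the complex, was at 7.73, 7.47 and 7.76 against 7.14, 7.41 and 7.25 log2 RPKM, a log2 fold change of 0.39 ± 0.12 (adjusted *P* of 0.0694 by limma). *Ndufab1*, the mitochondrial acyl carrier protein, which also acts in fatty acid and iron-sulphur cluster synthesis, rose by 0.43. *Ndufa10*, a matrix-facing accessory subunit, had the lowest log2 fold change of the complex, −0.11 ± 0.11, and was not called.

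Complex II (succinate dehydrogenase) links the tricarboxylic acid cycle to the chain, and its 4 subunits did not share a direction. *Sdha* (chr13:74322254-74350280), the flavoprotein that oxidises succinate, was the single respiratory chain gene called lower. It was at 6.15, 6.24 and 6.17 in *Pax9*-null and at 6.55, 6.42 and 6.32 log2 RPKM in wild-type libraries, and fell by 0.24 ± 0.09 on the log2 scale (adjusted *P* of 0.0971 by limma). The groups did not overlap, but the call was lost in every fit that left out 1 library, where the adjusted *P* ran from 0.117 to 0.265. *Sdhd*, a membrane anchor (chr9:50596357-50603812), was called higher, at 7.74, 7.56 and 7.67 against 7.16, 7.52 and 7.24 log2 RPKM (log2 fold change 0.35 ± 0.12, adjusted *P* of 0.082). It was called in 1 of the 6 fits that left out a library (adjusted *P* of 0.0401 to 0.253), and was at 0.08 after quantile normalization and 0.10 with length and GC trends removed, not called in either. *Sdhb*, the iron-sulphur subunit, and *Sdhc*, the other anchor, had log2 fold changes of 0.29 and 0.25 and were not called (adjusted *P* of 0.169 and 0.142). Against the mean of the other subunits, *Sdha* was at −0.43, −0.15 and −0.41 in *Pax9*-null and at 0.50, 0.00 and 0.14 log2 units in wild-type libraries. The replicates numbered 2 were again the closest pair across the genotypes.

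Complex III (cytochrome *bc*1) passes electrons from ubiquinol to cytochrome *c*. Of its 8 genes, 4 were called higher, against 14.7% of all tested genes, and the median log2 fold change was 0.37. *Uqcrq*, a small subunit bound to cytochrome *b* (chr11:53427922-53430831), had the largest log2 fold change, 0.68 ± 0.22 (adjusted *P* of 0.0805 by limma). It was at 4.39, 4.26 and 4.64 in *Pax9*-null and at 3.33, 4.25 and 3.69 log2 RPKM in wild-type libraries, so that wild-type replicate 2 fell just short of the lowest *Pax9*-null library. *Uqcrfs1*, the Rieske iron-sulphur protein, rose by 0.37 ± 0.11 (adjusted *P* of 0.0661), and *Uqcrh*, the hinge subunit and most abundant gene of the complex, by 0.44 ± 0.13 (adjusted *P* of 0.0646). *Uqcrb* also rose, by 0.56, but was at −0.21 and not called with length and GC trends removed. *Cyc1*, which encodes cytochrome *c*1, was at 6.74, 6.65 and 6.93 against 6.70, 6.90 and 6.77 log2 RPKM, a difference of −0.01 ± 0.10. *Uqcrc2*, a core subunit, had a log2 fold change of 0.17 and was not called. *Cycs*, the mobile cytochrome *c*, was at 5.87, 5.51 and 5.79 in *Pax9*-null and at 5.21, 5.62 and 5.22 log2 RPKM in wild-type libraries. Its groups overlapped through wild-type replicate 2, and its log2 fold change of 0.38 ± 0.14 was just outside the threshold (adjusted *P* of 0.108 by limma).

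**Figure D3:**
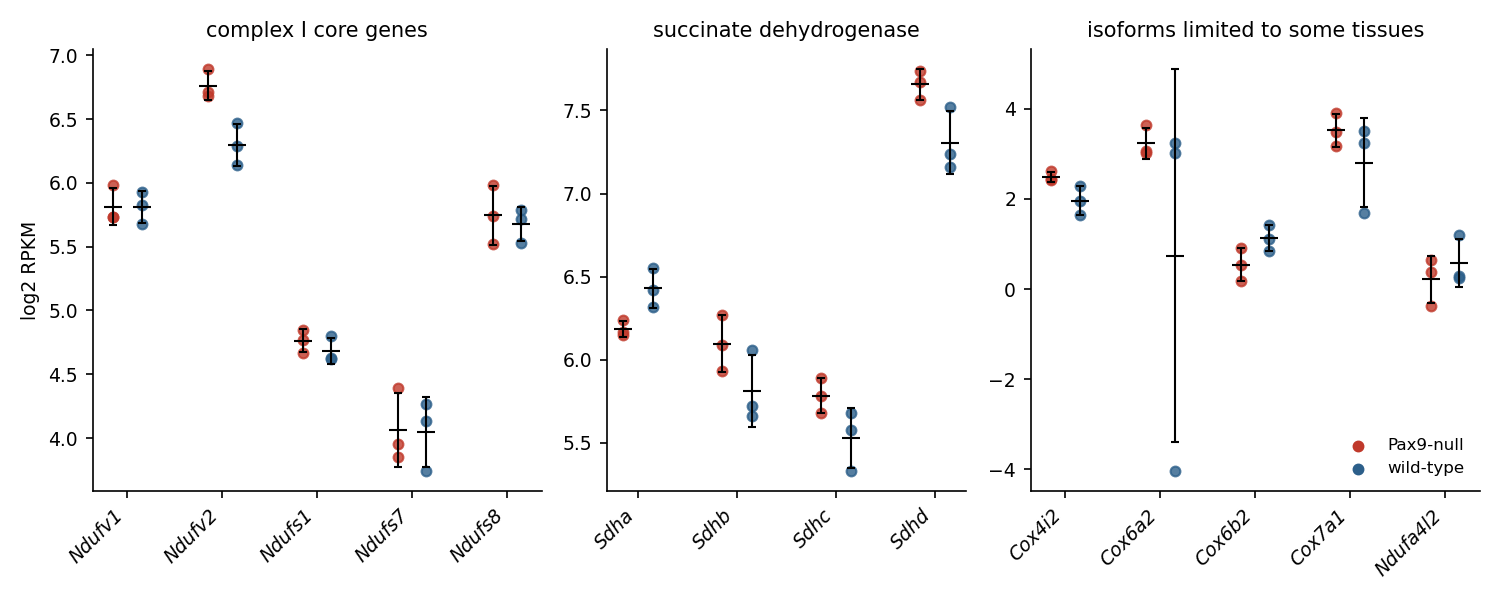
Log2 RPKM of 5 complex I core genes, the succinate dehydrogenase genes and the tissue-limited isoforms in each library (points, n = 3 per genotype), with mean and SD. *Ndufv2* and *Sdhd* lie higher and *Sdha* lower in *Pax9*-null libraries without overlap, and the lone low point of *Cox6a2* (−4.04) is wild-type replicate 3.

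Complex IV (cytochrome *c* oxidase) reduces oxygen. Of its 17 genes, 8 were called higher and 0 lower by limma, against 14.7% and 12.0% of all tested genes. At an unadjusted *P* under 0.05, 1 was lower, and the median log2 fold change was 0.36. *Cox7c* (chr13:86044816-86046904) had the largest called difference. It was at 7.37, 7.17 and 7.31 in *Pax9*-null and at 6.37, 6.92 and 6.71 log2 RPKM in wild-type libraries, a log2 fold change of 0.61 ± 0.14 (adjusted *P* of 0.0439 by limma). With length and GC trends removed it was at −0.08 (adjusted *P* of 0.476). *Cox4i1* and *Cox5b*, which encode widely expressed subunits, had log2 fold changes of 0.19 and 0.20 and were not called, while *Cox5a*, whose libraries overlapped by a shared value of 5.02, rose by 0.36 (adjusted *P* of 0.0959). *Cox7a2l*, a supercomplex assembly factor, and *Cox8a* were not called either (0.13 and 0.22). *Ndufa4*, once assigned to complex I and now to complex IV, rose by 0.53, *Cox7b* by 0.52, *Cox6c* by 0.51, *Cox7a2* by 0.44 and *Cox6b1*, the most abundant gene of the complex at 7.53 to 7.99 log2 RPKM, by 0.31. With length and GC trends removed, these genes were at 0.00, −0.02, 0.45, 0.12 and −0.20 in the same order. None of them was called in that fit (adjusted *P* of 0.149 to 0.993 by limma).

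Several subunits of complex IV have an isoform with a narrower range of tissues, and these were far lower than their partners on the per-length scale. *Cox4i1* was at 6.93 to 7.41 log2 RPKM and *Cox4i2*, an isoform known from lung, at 1.65 to 2.61. *Cox4i2* was called higher, from 2.28, 1.65 and 1.96 in wild-type to 2.41, 2.61 and 2.45 log2 RPKM in *Pax9*-null libraries (log2 fold change 0.53 ± 0.17, adjusted *P* of 0.0804 by limma). Its values rest on 30 to 55 reads in a library, and it was called in 1 of the 6 fits that left out a library. With length and GC trends removed *Cox4i2* was at 0.26 and not called (adjusted *P* of 0.582 by limma). *Cox6a2* and *Cox7a1*, the heart and skeletal muscle isoforms, followed the cardiomyocyte markers. *Cox6a2* was at 3.63, 3.02 and 3.06 in *Pax9*-null and at 3.01, 3.24 and −4.04 log2 RPKM in wild-type libraries, the last of which held 0 reads. Its log2 fold change of 2.50 ± 1.73 became 0.11 without wild-type replicate 3. *Cox7a1* was at 3.90, 3.17 and 3.49 against 3.23, 3.50 and 1.68 log2 RPKM, and its log2 fold change of 0.72 became 0.16 without that library. Neither was called. *Cox6a1*, the partner of *Cox6a2* in other tissues, had a log2 fold change of 0.30 and was not called. *Cox6b2*, a testis isoform, and *Ndufa4l2*, a hypoxia-responsive relative of *Ndufa4*, were at most at 1.43 log2 RPKM in any library, with log2 fold changes of −0.59 ± 0.24 and −0.37 ± 0.35 that were not called (adjusted *P* of 0.131 and 0.481 by limma).

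In complex V, 7 of 16 genes were called higher, against 14.7% of all tested genes. All 16 had a log2 fold change above 0, with a median of 0.31. *Atp5l*, subunit g of the membrane part (chr9:44912557-44920742), had the largest, at 2.23, 1.97 and 2.36 in *Pax9*-null and 1.40, 1.67 and 1.55 log2 RPKM in wild-type libraries (0.65 ± 0.15, adjusted *P* of 0.0438 by limma). Its gene model of 6443 bp holds a coding sequence of 309 bp, which lowers its level per length. *Atp5a1* and *Atp5b*, which encode the F1 subunits alpha and beta, were the most abundant genes of the complex and differed little. *Atp5a1* was at 8.67, 8.59 and 8.63 against 8.42, 8.64 and 8.42 log2 RPKM (0.14 ± 0.11), and *Atp5b* had a log2 fold change of 0.16 ± 0.10. Neither was called. *Atp5c1*, the rotating gamma subunit, rose by 0.43 ± 0.12 (adjusted *P* of 0.0601). The genes *Atp5g1*, *Atp5g2* and *Atp5g3* encode the same mature subunit c of the proton ring. Their log2 fold changes were 0.04, 0.18 and 0.35, and *Atp5g3*, the most abundant, was the one called. It was called in 1 of the 6 fits that left out a library. With length and GC trends removed, *Atp5g3* was at 0.30 and not called (adjusted *P* of 0.137 by limma). In that fit *Atp5g2* was at 0.34 and called (adjusted *P* of 0.0996). *Atp5k* (0.54), *Atp5f1* (0.49), *Atp5j* (0.39) and *Atp5h* (0.34) were the other genes called.

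Assembly factors help to build complexes without being part of them. Of the 9 listed by these symbols, 5 were called higher, against 14.7% of all tested genes. The median log2 fold change of the 9 was 0.34. *Ndufaf4* (chr4:24898083-24905001) had the lowest adjusted *P* of the 90 genes, 0.0292. It was at 4.90, 4.65 and 4.78 in *Pax9*-null and at 4.18, 4.36 and 4.16 log2 RPKM in wild-type libraries, with a log2 fold change of 0.54 ± 0.10. *Ndufaf2*, the most abundant of them, rose by 0.53, but 64.1% of the 50-base words of its transcripts occur in other genes' transcripts and its values could not be turned into whole reads, so that its level is uncertain. *Ndufaf5*, *Ndufaf6* and *Ndufaf1* rose by 0.44, 0.43 and 0.34. *Atp5sl* was at −0.05 ± 0.13 and was not called. Over 20% of words were shared with other transcripts in 9 of the 90 genes, among them *Atp5o* (41.6%), *Atp5g2* (38.3%), *Cycs* (26.1%), *Uqcrb* (25.5%) and *Cox7c* (22.1%).

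The fold changes followed gene length and base composition, in the respiratory chain genes as in the whole table. The 90 genes are short, with a median gene model of 1696 bp and a median coding sequence of 435 bp, against 4170 and 1386 bp over all tested genes. Across the 90 genes, which share the same 6 libraries and are not replicates, fold change was correlated with coding length (Spearman's rho −0.42), GC content (−0.44) and gene model length (−0.16). Over all tested genes these values were −0.49, −0.44 and −0.40. The core genes of complex I, with the smaller median fold change, have a median coding length of 1066 bp and a GC content of 54.5%, and the accessory genes 411 bp and 50.3%. When the trends of each library with gene model length and GC content were removed before the fit, the median log2 fold change of the 90 genes was 0.11, with 64 genes above 0, against 0.01 over all tested genes. Then 5 genes were called higher, against 2.55% of all tested genes, and 3 lower, against 1.16%, and 4 of the 5 had been called before. Of the 38 genes called higher as deposited, 5 turned below 0, namely *Ndufb3* (−0.31), *Uqcrb*, *Cox6b1*, *Cox7c* and *Cox7b*. Spearman's rho with gene model length became 0.50 across the 90 genes and −0.17 over all tested genes, so that in the 90 genes the removal left an opposite trend. With coding length, which was not removed directly, rho became 0.19 across the 90 genes and −0.34 over all tested genes. *Ndufb4* (0.77), *Ndufa6* (0.57), *Ndufaf2* (0.51) and *Ndufab1* (0.42) were called with and without the trends, and *Atp5g2* (0.34) only in this fit. The values of *Ndufa6* and *Ndufaf2* could not be turned into whole reads, so that their levels are uncertain. The genes called lower were *Ndufa1* (−0.60), *Ndufb6* (−0.34) and *Ndufa2* (−0.31), which have gene models of 419, 659 and 572 bp and had log2 fold changes of 0.31, 0.30 and 0.30 as deposited. *Sdha* was at −0.21 and was no longer called. The median became 0.13 for complex I, 0.03 for complex III, 0.01 for complex IV and 0.28 for complex V, in which 15 of 16 genes stayed above 0. *Atp5a1* and *Atp5b*, with little difference as deposited, were at 0.32 and 0.30, and were not called. For the complex I core the median was 0.15 and for the accessory genes 0.11. Removing the trends also removes any difference between the genotypes that runs with length or GC content, and these cannot be told apart here.

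**Figure D4:**
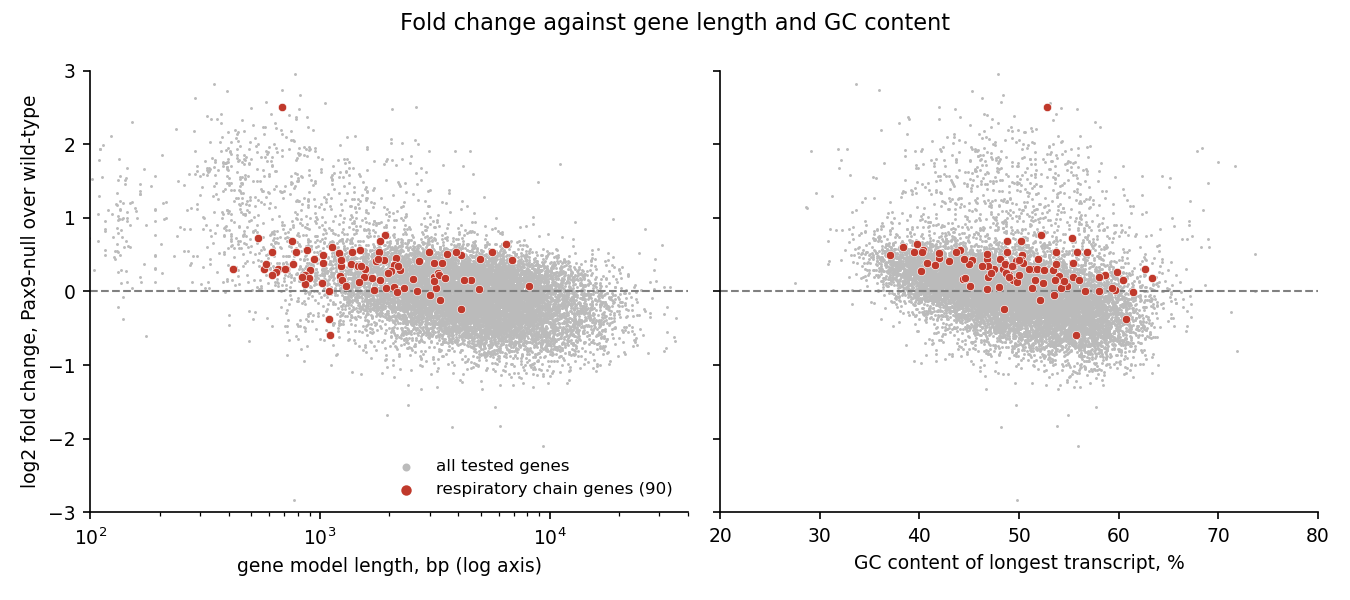
Log2 fold change (*Pax9*-null over wild-type) against gene model length (log axis) and GC content, for all tested genes (grey, those within the axes) and the 90 respiratory chain genes (red). Spearman's rho with GC content is −0.44 in each set, and with gene model length −0.16 in the 90 genes and −0.40 in all tested genes.

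Subunits encoded in mitochondrial DNA form the remainder of complexes I, III, IV and V. Of the 13 such genes, 11 were measured. By limma 8 were called higher and 0 lower, against 14.7% and 12.0% of all tested genes (0 lower also at an unadjusted *P* under 0.05). The median log2 fold change was 0.59. *mt-Nd1*, a complex I subunit, was at 9.42, 9.39 and 9.35 in *Pax9*-null and at 8.81, 8.83 and 9.13 log2 RPKM in wild-type libraries (0.46 ± 0.13, adjusted *P* of 0.0594 by limma). *mt-Co1*, the catalytic subunit of complex IV, was at 9.27, 9.20 and 8.93 against 9.75, 8.89 and 8.87, with a log2 fold change of −0.03, and was not called. Of its 50-base words 51.1% are shared with other genes' transcripts, and of those of *mt-Nd4* 62.2%. *mt-Cytb* (0.32) and *mt-Nd6* (0.51) were not called either. The largest log2 fold changes, 1.58 for *mt-Nd3*, 1.92 for *mt-Co2*, 2.37 for *mt-Co3* and 2.74 for *mt-Atp6*, were in genes that share at least 98.0% of their 50-base words with other genes' transcripts. The values of these 4 genes, and of *mt-Co1* and *mt-Nd4*, are uncertain. With length and GC trends removed, 1 of the 11 was called higher and the median was 0.02, and *mt-Nd1* was at −0.35 and not called.

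Of the 20 tested genes of transcription factors and mitochondrial DNA upkeep, 4 were called higher and 1 lower, beside 14.7% and 12.0% of all tested genes. *Nrf1*, *Gabpa* and *Yy1*, whose words were searched in the promoters, had log2 fold changes of −0.11, 0.23 and 0.21 and were not called (adjusted *P* of 0.483, 0.11 and 0.107 by limma). *Tfam*, which packages mitochondrial DNA and helps to start its transcription, was at 5.50, 5.35 and 5.44 in *Pax9*-null and at 4.99, 5.21 and 5.22 log2 RPKM in wild-type libraries, and was called higher (0.29 ± 0.09, adjusted *P* of 0.0739). *Pprc1*, a PGC-1-related coactivator, fell by 0.47 ± 0.15 (adjusted *P* of 0.0798), from 2.68, 2.60 and 2.72 to 1.95, 2.49 and 2.16 log2 RPKM. *Ppargc1a*, the coactivator PGC-1alpha, and *Esrra*, the orphan receptor ERRalpha, were not called (0.21 and 0.26), and *Ppargc1b* was below the filter on low values. The 4 genes called higher were *Tfam*, *Ssbp1*, *Mterf1a* and *Mterf3*, and the 1 called lower was *Pprc1*. The median over the 20 tested genes was 0.18. With length and GC trends removed these 5 calls were lost (*Tfam* 0.20, adjusted *P* of 0.193, and *Pprc1* −0.13, adjusted *P* of 0.562), and *Yy1* was called higher (0.38, adjusted *P* of 0.0513 by limma).

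**Figure D5:**
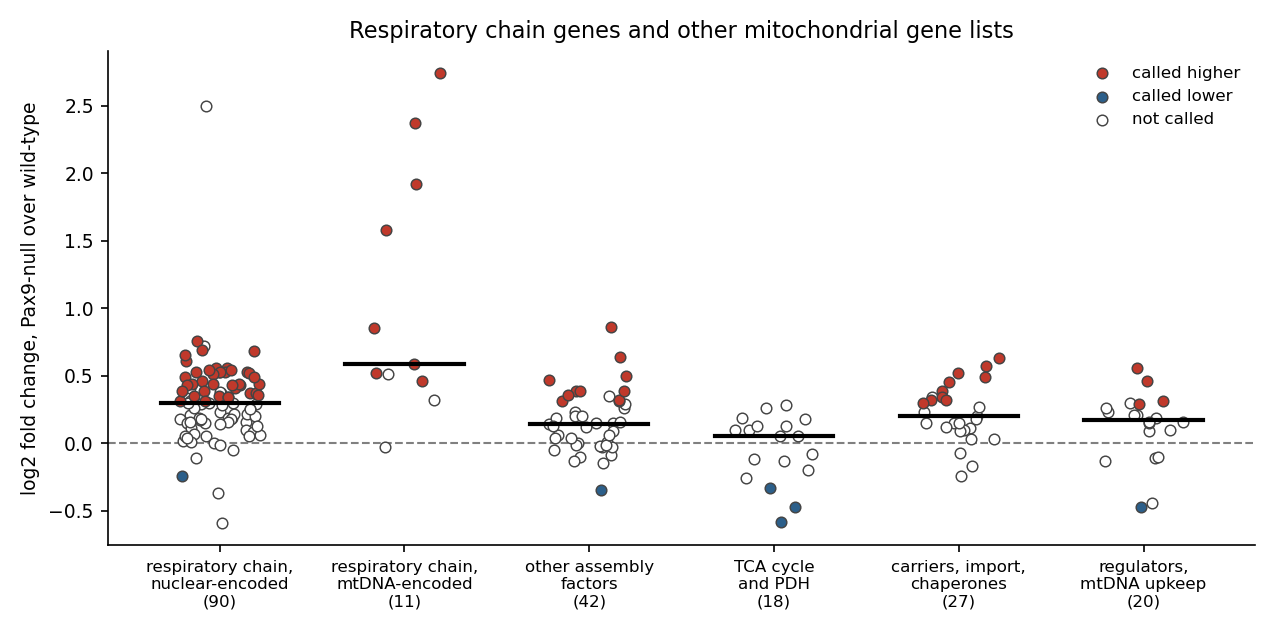
Log2 fold change (*Pax9*-null over wild-type) of the 90 nuclear-encoded respiratory chain genes beside other mitochondrial gene lists, with the number of tested genes under each. Points are genes, filled where called, and bars are medians, which run from 0.05 (tricarboxylic acid cycle and pyruvate dehydrogenase) to 0.59 (subunits encoded in mitochondrial DNA).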

How the data were processed

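Per the labels, total RNA came from the dissected pharyngeal arch region. The protocol text of the labels describes sorted cells and another library kit, and the published methods, which describe whole tissue and stranded TruSeq libraries, were followed. The authors trimmed reads, kept unique and non-redundant alignments, sub-sampled the larger libraries, used STAR on GRCm38 and counted reads per gene with featureCounts. The submitters' notes name Trimmomatic 0.32, STAR 2.5.1a and featureCounts 1.5.1. The deposited values are log2 RPKM with a prior count of 0.5, which, with the library sizes, was worked out from the table. At GENCODE M21 lengths, 80.7% of the 14647 genes gave whole reads within 0.05 read in all libraries.

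Here limma 3.58.1 (R 4.3.3, lmFit and eBayes with a trend, two-sided) was fitted to the log2 values of the 13547 genes whose mean reached 0.5 RPKM, with Benjamini-Hochberg adjustment, and genes were called at 0.1, the threshold of the study. The script was tested on simulated data. An exact permutation test of 3 against 3 cannot give a *P* below 0.1. The published methods give 3 embryos of each genotype. Alternatives were pseudocounts, filters, centring, quantile normalization, a replicate block, no variance trend, removal of length and GC trends (loess, span 0.3), a threshold of 0.05, and each library left out. Genes named are the catalytic and redox core, isoforms, the largest, smallest and most abundant gene of each complex, any gene called lower and regulators. Other genes are named for their values, and values of a few single genes are not reported here. The genes and lists were chosen with earlier results of these data known.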

Additional observations from a re-analysis of the deposited data

How the results depend on the processing

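Of 38 genes called higher, the count was 37 to 39 with other pseudocounts, filters or median centring. It was 19 after quantile normalization (3175 of all 13547 tested genes were called in either direction), 23 without a variance trend (2818), 5 after removal of length and GC trends (503), 11 at an adjusted *P* of at most 0.05, and 8 with a replicate block (1377), all 8 among the 38. Same-numbered libraries deviated together with correlations of −0.02, −0.17 and 0.26, so that the numbers were not taken as pairing. Leaving out 1 library gave 0 to 48 genes called higher and 0 called lower (0 to 2 lower at an unadjusted *P* under 0.05 by limma). *Sdha*, the 1 gene called lower, was also lost (0 genes) with no filter, median centring, the replicate block, no variance trend or the 0.05 threshold, whereas 3 other genes were called lower without the length and GC trends. The median log2 fold change was 0.14 after quantile normalization and 0.11 after removal of the trends. The cause of these changes was not tested. Some log2 fold changes of the named genes turned sign. After quantile normalization they were −0.14 for *Ndufv1*, −0.06 for *Ndufs8*, −0.04 for *Uqcrc2*, −0.05 for *Cox4i1*, −0.25 for *Atp5a1*, −0.22 for *Atp5b*, −0.09 for *Cox7a2l*, −0.06 for *Cox8a* and −0.03 for *Atp5g1*. Without the trends they were −0.03 for *Uqcrc2*, 0.21 for *Cyc1*, −0.20 for *Cox6b1*, −0.03 for *Cox7a2l*, −0.02 for *Cox7b*, −0.17 for *Cox8a* and 0.09 for *Atp5sl*, and *Cyc1* was at 0.02 after median centring. Leaving out 1 library gave −0.09 to 0.06 for *Ndufv1*, −0.14 to 0.13 for *Ndufs7*, −0.05 to 0.18 for *Ndufs8*, −0.09 to 0.05 for *Cyc1*, −0.07 to 0.15 for *Atp5g1* and −0.15 to 0.02 for *Atp5sl*. Over 43 named genes and 641 alternative values, 484 kept direction and side of the threshold, 118 lost the call, 10 gained it and 29 changed sign.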

Other observations

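Other mitochondrial lists were read beside 14.7% of all tested genes called higher and 12.0% called lower. Of 18 genes of the tricarboxylic acid cycle and pyruvate dehydrogenase, 0 were called higher by limma (1 at an unadjusted *P* under 0.05) and 3 were called lower (4), with a median log2 fold change of 0.05. Among those that fell were *Pcx* (pyruvate carboxylase, −0.58 ± 0.16, adjusted *P* of 0.0588) and *Ogdh* (2-oxoglutarate dehydrogenase, −0.47 ± 0.15, adjusted *P* of 0.0744). *Ogdh* was at 4.44, 4.70 and 4.59 in *Pax9*-null and at 5.38, 4.92 and 4.84 log2 RPKM in wild-type libraries. With length and GC trends removed, 0 genes of this list were called by limma (1 higher and 1 lower at an unadjusted *P* under 0.05), and the median was −0.01. The median coding length of these genes was 1359 bp.

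Of 27 genes for carriers, channels, protein import and chaperones, 10 were called higher and 0 lower by limma (0 lower also at an unadjusted *P* under 0.05), with a median of 0.20. *Hspe1* (mitochondrial chaperonin 10) was at 8.31, 8.10 and 8.28 in *Pax9*-null and at 7.42, 7.80 and 7.57 log2 RPKM in wild-type libraries (0.63 ± 0.13, adjusted *P* of 0.0352 by limma). *Timm23*, the channel of the inner membrane translocase, rose by 0.49. With length and GC trends removed these 2 were still called higher, at 0.31 and 0.37, the other 8 were not, and *Timm8b*, an intermembrane space chaperone at 0.15 as deposited, was called lower (−0.58, adjusted *P* of 0.0538 by limma). *Slc25a4*, an ADP/ATP carrier, rose by 0.39. Among 42 assembly and regulatory factors outside the symbols described above, 10 were called higher and *Cox10*, a haem A synthesis enzyme, lower (−0.35), and with the trends removed 3 were called higher and 0 lower by limma (3 lower at an unadjusted *P* under 0.05). *Cox17*, a copper chaperone of complex IV, had the largest log2 fold change, 0.86 ± 0.19, with and without the trends, at 0.62 to 1.78 log2 RPKM.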
